A study of Saccharomyces cerevisiae with 15 samples.

Results

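The 57 genes described here encode the proteins of the small (40S) subunit of the cytosolic ribosome of budding yeast. They are all genes named RPS, together with ASC1, and were chosen by name, not by measured values, from 5703 genes analysed. They make 33 proteins, because 24 of the proteins are encoded by a pair of near-identical genes, the A and B paralogs, and 9 by a single gene. All 57 passed the filter on low counts in every comparison. The libraries came from YWG25, a wild-type (WT) strain of the Sigma1278b background, taken without glucose (-GLU) or with glucose (+GLU). For each state there were 3 RNA libraries and 3 libraries of ribosome footprints, the pieces of mRNA of about 28 nt left after RNase digestion because a ribosome covered them, so that footprint counts follow the number of ribosomes on an mRNA. The labels describe growth of all cultures in YPD medium and treatment with cycloheximide, a drug that arrests elongating ribosomes. There were also 3 single footprint libraries whose labels say that the drug was left out: a -GLU and a +GLU library harvested fast, by filtration and freezing, and a -GLU library with no such note. The study asked how translation adapts to loss of glucose. The sources used here do not give how long glucose was absent.

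The small subunit binds mRNA, finds the start codon and pairs codons with tRNAs, while the large (60S) subunit joins amino acids. A growing yeast cell spends much of its transcription on the genes for these proteins, most of which are driven by the factor Rap1 with Fhl1 and its coactivator Ifh1, under control of the kinases TOR and protein kinase A. Many of them are duplicated and contain an intron, and 37 of the 57 have an intron in the coding sequence. ASC1 is the yeast form of RACK1, a signalling scaffold on the head of the subunit. RPS31 is made as a fusion with ubiquitin, and the protein of RPS6 is phosphorylated by the kinase Ypk3.

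Depth ranged from 2391712 to 12560502 counts in the 12 replicated libraries and from 1610986 to 30575562 in the 3 libraries without cycloheximide. Genes repressed by glucose (FBP1, PCK1, ICL1, MLS1 and JEN1) were higher in -GLU libraries in 5 of 5 cases in RNA and in footprints, as the labels require. RNA was selected for poly(A) on oligo-dT cellulose in all 3 -GLU RNA libraries and in +GLU RNA replicate 1, and on DynaBeads in +GLU RNA replicates 2 and 3. Counts were taken over a region 26 nt longer in -GLU RNA replicate 3, -GLU footprint replicate 3 and +GLU RNA replicate 1 than in the other 12 libraries. -GLU RNA replicate 3 stood apart: 52 of the 57 genes lay below both other -GLU RNA libraries, by a median log2 difference of -0.59. In the -GLU footprints, 34 genes were lowest in replicate 3 and 14 were highest in it. Whether the replicates were grown as separate cultures is not stated in the labels, so each p-value reflects the spread of these libraries alone, and that spread may be technical.

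The genes of the small subunit took a far smaller part of all counts without glucose. In RNA they held 0.778%, 0.768% and 0.467% of counts in the 3 -GLU libraries, against 6.01%, 9.78% and 9.20% in the +GLU libraries. In footprints they held 0.582%, 0.527% and 0.520% in -GLU cells, against 9.70%, 8.95% and 8.83% in +GLU cells. The states did not overlap in either assay. The mean share was 0.671% ± 0.177 in -GLU and 8.33% ± 2.03 in +GLU RNA (SD, n = 3 each), 12.4-fold lower without glucose, and 0.543% ± 0.034 in -GLU and 9.16% ± 0.469 in +GLU footprints, 16.9-fold lower. An exact two-sided permutation test gave p = 0.1 in both assays, the smallest p that 3 libraries against 3 allow. Counts are relative to the library, and in bulk cultures fewer cells holding an mRNA and less mRNA per cell cannot be told apart.

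**Figure D1:**
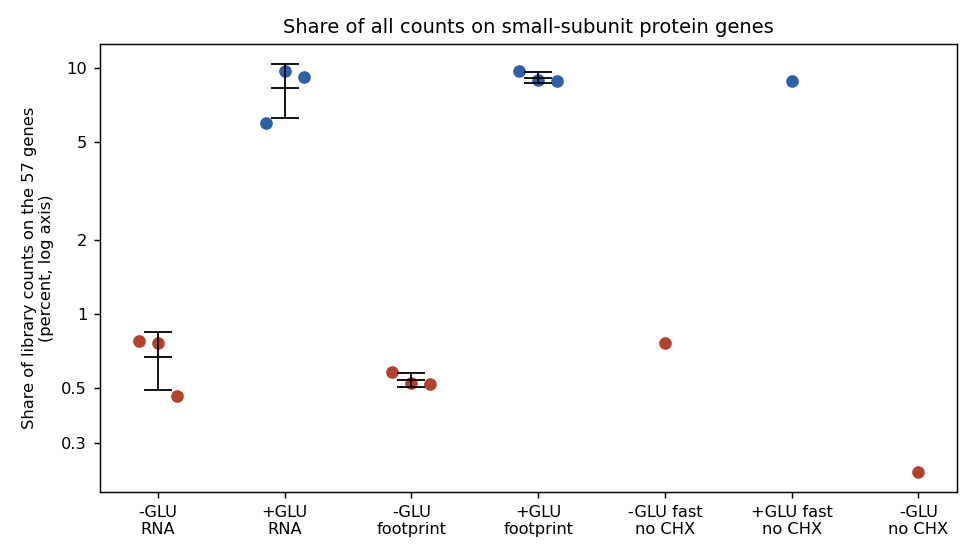
Percent of each library's counts on the 57 small-subunit protein genes (log axis). Points are libraries, black bars the mean and SD of 3 libraries; the 3 groups at the right are single libraries without cycloheximide. The -GLU libraries lie between 0.229% and 0.778%, the +GLU libraries between 6.01% and 9.78%.

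The ratio of small-subunit to large-subunit counts moved in opposite directions in the assays. In RNA it was 0.696, 0.664 and 0.661 in -GLU libraries and 0.752, 0.759 and 0.795 in +GLU libraries. In footprints it was 0.723, 0.732 and 0.673 in -GLU libraries and 0.643, 0.660 and 0.660 in +GLU libraries. Neither set overlapped between states (exact permutation p = 0.1 for each, the smallest possible). These are small shifts beside the fall of both subunits: of the 79 genes of the large subunit tested, all 79 fell in RNA (median log2 change -3.54) and all 79 fell in footprints (median -4.64).

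In RNA, 56 of the 57 genes fell without glucose and 0 rose, where 30.2% of all genes tested fell and 30.4% rose (edgeR quasi-likelihood F test, adjusted p under 0.05 over all 5519 genes tested). The median log2 change of the 57 was -3.67, against 0.01 for all genes tested. In all 57 the 3 -GLU libraries lay below the 3 +GLU libraries, as they did for 33.9% of all genes tested. Levels below are normalised counts per 1000000 counts (CPM), given in the order of the replicate numbers.

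RPS22A (YJL190C), which encodes a core protein of the subunit body, changed most in RNA. It had 66.3, 57.6 and 37.5 CPM in -GLU RNA, against 1361, 1965 and 2017 CPM in +GLU RNA, a log2 change of -5.05 ± 0.39 (SE; edgeR adjusted p = 2.01e-05). The lowest +GLU value was 20.5-fold above the highest -GLU value. RPS31 (YLR167W), the ubiquitin fusion, had 265, 277 and 184 CPM in -GLU RNA, against 3620, 8803 and 9136 CPM in +GLU RNA, a log2 change of -4.89 ± 0.56. ASC1 (YMR116C) had 166, 138 and 113 CPM in -GLU RNA, against 2063, 5024 and 4755 CPM in +GLU RNA, a log2 change of -4.83 ± 0.50. For RPS31 and ASC1 the lowest +GLU value was that of replicate 1, the +GLU library selected on cellulose. With cellulose RNA alone, which leaves that library as the single +GLU one, the log2 change was -3.87 for RPS31 and -3.86 for ASC1.

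At the other end stood 3 B or A copies that are the lesser partner of their pair. RPS9A (YPL081W) was the gene that did not pass the test: it had 122, 129 and 22.8 CPM in -GLU RNA, against 133, 221 and 178 CPM in +GLU RNA, a log2 change of -0.95 ± 0.53 (edgeR adjusted p = 0.15). Its highest -GLU value and its lowest +GLU value were almost equal, and -GLU replicate 3 lay far below both others. Without that library its log2 change was -0.47 (adjusted p = 0.121), and over the alternatives tried its adjusted p lay between 0.0281 and 0.683. RPS14B, whose protein is known to bind and repress the pre-mRNA of RPS14B itself, had 73.1, 82.1 and 37.4 CPM in -GLU RNA, against 174, 314 and 232 CPM in +GLU RNA, a log2 change of -1.90 ± 0.34. That call was lost when RNA selected on cellulose alone was used, which leaves 1 +GLU library (-1.40, adjusted p = 0.0690, the highest over its alternatives, from 8.94e-07). RPS7B, for a protein that is ubiquitinated in yeast, had 115, 124 and 107 CPM in -GLU RNA, against 592, 588 and 583 CPM in +GLU RNA, a log2 change of -2.35 ± 0.22. Its 3 values agreed closely within each state.

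Single-copy genes have no paralog to share reads with, and 28-base windows of those named next occur in no other coding sequence, whereas 11.3% of the windows of RPS31 do. RPS12, the most abundant transcript of the 57 per length, had 416, 428 and 276 CPM in -GLU RNA, against 4301, 9531 and 9416 CPM in +GLU RNA (log2 change -4.38 ± 0.54). RPS2, at the mRNA entry of the subunit, had 356, 362 and 177 CPM in -GLU RNA, against 2932, 5553 and 5096 CPM in +GLU RNA (-3.92 ± 0.49). In both genes -GLU replicate 3 and +GLU replicate 1 were the lowest of their state. RPS3, which lines the entry channel, changed by -3.66 ± 0.47, RPS13 by -3.49 ± 0.44 and RPS20 by -3.48 ± 0.37 on the log2 scale. RPS15, next to the decoding site, changed least among single-copy genes, with 226, 224 and 200 CPM in -GLU RNA, against 1110, 1510 and 1153 CPM in +GLU RNA (-2.54 ± 0.28).

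With RNA selected on cellulose alone (3 -GLU libraries and 1 +GLU library) all 57 changes stayed below 0 and their median was -2.98. Of the genes above, RPS12 stood at -3.49, RPS2 at -3.26, RPS3 at -2.98 and RPS20 at -2.78. In that fit the lone +GLU library is assumed to vary like the others, so its calls and lost calls, here and below, have no replicate check of their own in +GLU RNA. The selection material and the +GLU replicates cannot be told apart. Over the 57 genes the RNA change followed the +GLU RNA level (Pearson r = -0.65, Spearman rho = -0.59), a description across genes of the same libraries, in which the +GLU level is itself part of the change. The 23 genes for proteins of the head of the subunit had a median log2 change of -3.73 in RNA, and the 34 for proteins of the body and platform -3.64. Genes with an intron in the coding sequence (37) had a median of -3.67 in RNA, and those without (20) -3.72. In footprints the medians were -4.22 with and -4.71 without an intron, and -4.51 for the head and -4.26 for the body and platform. Differences between these groups were not tested.

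In footprints all 57 genes fell and 0 rose, where 31.0% of all genes tested fell and 33.8% rose (edgeR, over 5319 genes tested). The median log2 change was -4.40, against 0.10 for all genes tested, and in all 57 the -GLU libraries lay below the +GLU libraries, as they did for 35.5% of all genes tested. RPS22A again changed most: it had 38.4, 32.0 and 32.8 CPM in -GLU footprints, against 2847, 2576 and 2387 CPM in +GLU footprints, a log2 change of -6.24 ± 0.30 (edgeR adjusted p = 2.00e-05). ASC1 had 83.8, 61.9 and 41.6 CPM in -GLU footprints, against 3716, 5062 and 5053 CPM in +GLU footprints (-6.20 ± 0.43). RPS9B, the major copy of a protein that contributes to decoding accuracy, had 92.7, 59.4 and 39.3 CPM in -GLU footprints, against 3284, 2772 and 2719 CPM in +GLU footprints (-5.51 ± 0.43). The lowest +GLU value was 62.1-fold above the highest -GLU value for RPS22A and 29.3-fold for RPS9B.

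The smallest footprint changes over all libraries were again those of minor copies. RPS30B, for a small protein near the mRNA channel, had 53.3, 48.8 and 134 CPM in -GLU footprints, against 396, 278 and 270 CPM in +GLU footprints, a log2 change of -2.002 ± 0.43 (edgeR adjusted p = 0.00452). RPS22B had 34.6, 15.3 and 14.6 CPM in -GLU footprints, against 118, 88.8 and 87.4 CPM in +GLU footprints (-2.14 ± 0.36). RPS9A had 53.2, 25.98 and 24.4 CPM in -GLU footprints, against 151, 197 and 193 CPM in +GLU footprints (-2.36 ± 0.34). So RPS9A, which did not pass in RNA, did in footprints. RPS30B was highest of the -GLU libraries in replicate 3, and without that library its log2 change was -2.62, a larger fall than the -1.89 of RPS22B without it. Its partner RPS30A was lowest there, with 158, 177 and 46.0 CPM in -GLU footprints, against 1055, 819 and 872 CPM in +GLU footprints.

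**Figure D2:**
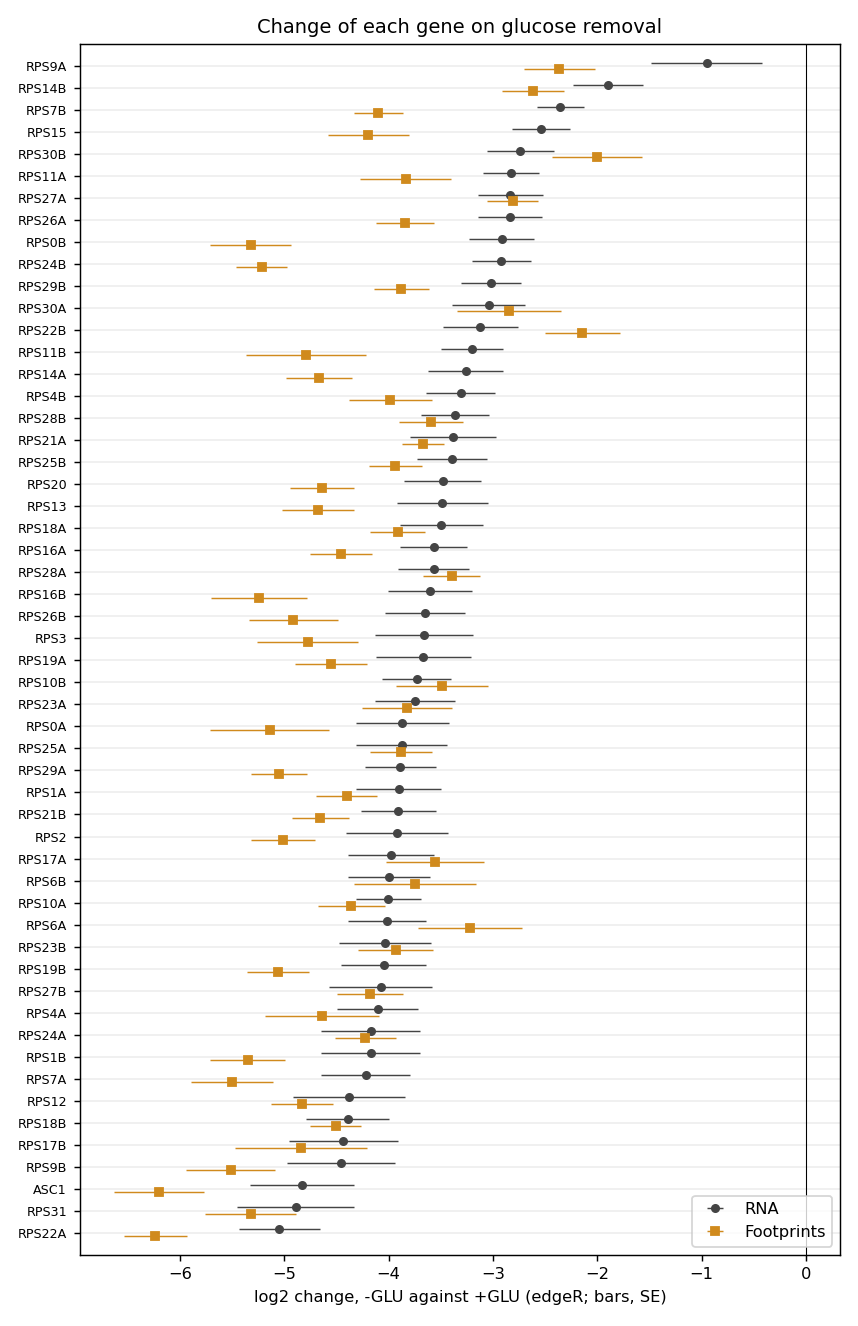
Log2 change of -GLU against +GLU for 54 of the 57 genes in RNA (circles) and footprints (squares), with SE from edgeR; genes are ordered by their RNA change. Every point lies below 0, from -0.95 (RPS9A) to -5.05 (RPS22A) in RNA and from -2.002 (RPS30B) to -6.24 (RPS22A) in footprints.

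Over the 57 genes, the RNA and footprint changes had a Pearson r of 0.63 and a Spearman rho of 0.53. RNA and footprint libraries are separate, but some paralogs share reads in both. Single-copy genes changed in footprints by -4.20 ± 0.39 (RPS15), -4.64 ± 0.31 (RPS20), -4.68 ± 0.35 (RPS13), -4.78 ± 0.49 (RPS3), -4.83 ± 0.30 (RPS12), -5.01 ± 0.31 (RPS2) and -5.32 ± 0.43 (RPS31) on the log2 scale. All 7 fell more in footprints than in RNA by point estimate, a difference tested next.

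Translational efficiency, here the footprint change minus the RNA change, was tested in 1 model over the 12 libraries, without pairing by replicate number. It fell in 4 of the 57 genes and rose in 0, where it fell in 4.48% and rose in 9.24% of all genes tested (edgeR interaction test over 5509 genes). The median log2 change of efficiency was -0.69, against 0.13 for all genes, and 45 of the 57 lay below 0. At an unadjusted p under 0.05 there were 18 genes, against 1684 of all 5509. The number called varied with the libraries and the model, as did the number over all genes. Without -GLU RNA replicate 3, 17 fell (11% of all genes tested), and without replicate 3 of both -GLU assays 17 fell (10.1% of all). With the replicate number as a block within each glucose state, which pairs the RNA and footprint libraries with the same number, 17 fell (11.1% of all). DESeq2 called 16 lower (9.53% of all) and 0 higher. In the main fit the median efficiency change was -0.62 for genes with an intron in the coding sequence and -0.99 for those without. It was -0.49 for the head and -0.82 for the body and platform, and these differences were not tested.

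RPS0B (YLR048W), one of the genes for a protein needed for 40S maturation, fell most in efficiency (log2 change -2.35 ± 0.44, edgeR adjusted p = 0.00695). Its RNA was 185, 188 and 114 CPM in -GLU cells, against 1143, 1370 and 1172 CPM in +GLU cells, and its footprints were 80.0, 64.1 and 37.9 CPM in -GLU cells, against 2213, 2434 and 2658 CPM in +GLU cells. Its fold change in footprints was thus several times that in RNA. RPS24B (-2.24 ± 0.36, adjusted p = 0.00407) had 36.5, 41.9 and 22.6 CPM in -GLU RNA, against 249, 305 and 211 CPM in +GLU RNA, and 15.6, 13.9 and 11.5 CPM in -GLU footprints, against 502, 484 and 548 CPM in +GLU footprints. The coding sequences of RPS24A and RPS24B are alike in 56.4% of their 28-base windows, so the split of their reads is uncertain. The efficiency change of RPS24A was 0.01 ± 0.53, and that of the summed pair -0.64 ± 0.48 (edgeR adjusted p = 0.389). RPS7B fell by 1.69 ± 0.29 on the log2 scale (adjusted p = 0.00461). Its footprints were 73.8, 79.0 and 65.3 CPM in -GLU cells, against 1253, 1282 and 1205 CPM in +GLU cells. RPS15 fell by 1.60 ± 0.44 (adjusted p = 0.0310), with footprints of 253, 264 and 130 CPM in -GLU cells, against 3649, 4258 and 3942 CPM in +GLU cells. The RPS15 call was lost without +GLU RNA replicate 3 (adjusted p = 0.0833), +GLU footprint replicate 2 (0.0838) or +GLU footprint replicate 3 (0.0666) and with cellulose RNA alone (0.0811), and over all alternatives its adjusted p lay between 1.00e-04 and 0.0838.

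The highest efficiency changes were 1.03 ± 0.52 for RPS22B (edgeR adjusted p = 0.196), 0.84 ± 0.61 for RPS6A (adjusted p = 0.365) and 0.80 ± 0.55 for RPS30B (adjusted p = 0.335), none past the threshold, and all 3 turned negative with cellulose RNA alone. RPS30B stood at 0.17 without -GLU footprint replicate 3, and RPS6A at 0.21 without -GLU footprint replicate 2. With that selection all 57 efficiency changes lay below 0, with a median of -1.51, and 5 were called lower (1.01% of all genes tested). Of the large-subunit genes, efficiency fell in 13 of 81 and rose in 0 (median -0.86), where it fell in 4.48% and rose in 9.24% of all genes tested.

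Within each state, footprints were also set against RNA, relative to the typical gene of that state. In -GLU cells 12 of the 57 genes had more footprints than RNA and 0 had fewer, where 20.6% of all genes tested were higher and 17.6% lower (median log2 ratio 0.28 over the 57, 0.06 over all genes). In +GLU cells 33 of the 57 were higher and 0 lower, where 19.6% of all genes tested were higher and 22.6% lower (median 1.07 over the 57, -0.05 over all genes). In +GLU cells RPS11B stood at 2.58 ± 0.44, RPS15 at 2.31 ± 0.32 and RPS11A at 2.21 ± 0.36, and in -GLU cells RPS6A stood highest, at 1.77 ± 0.44. The 4 genes below 0 in +GLU cells were RPS12 (-0.51 ± 0.36), RPS22B (-0.44 ± 0.36), RPS23B (-0.29 ± 0.37) and RPS31 (-0.07 ± 0.41), none past the test. These genes, like the other extremes of this ratio, were named after their values were seen. The count depends on the scaling: with total counts in place of TMM factors, which moved the median of all genes to -0.51 in -GLU cells and -0.86 in +GLU cells, 3 were higher and 10 lower in -GLU cells (8.39% and 38.7% of all genes), and 10 were higher and 3 lower in +GLU cells (4.72% and 54.3% of all genes). Relative to those medians the 57 still stood above, at -0.31 in -GLU cells and 0.31 in +GLU cells. With TMM factors and cellulose RNA alone, which leaves 1 +GLU RNA library, 0 of the 57 lay below 0 in +GLU cells. The median of the 57 was then 1.83, against 0.05 over all genes.

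**Figure D3:**
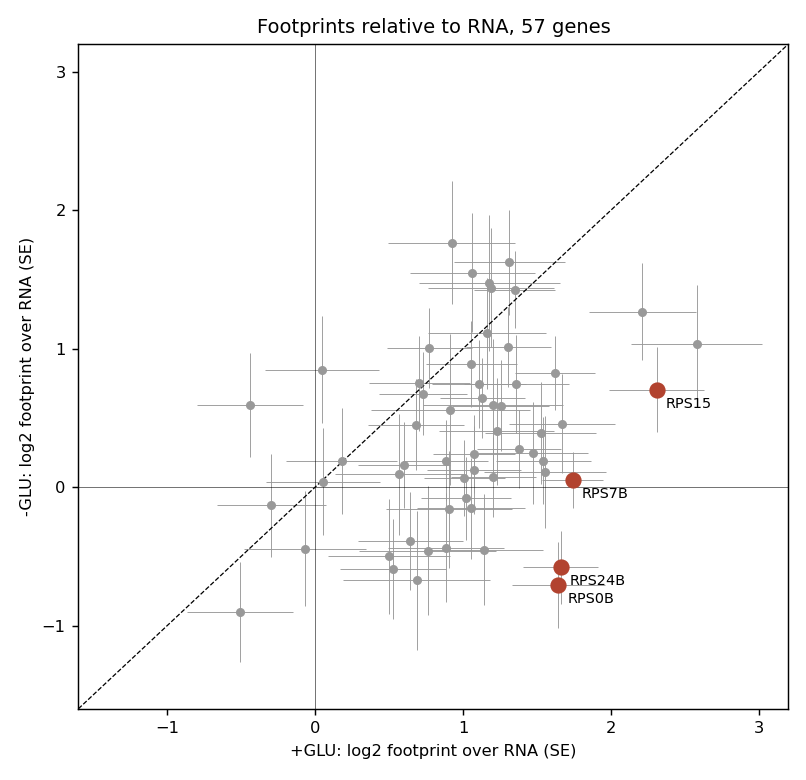
Log2 ratio of footprints to RNA for each of the 57 genes in -GLU cells (vertical axis) and +GLU cells (horizontal axis), with SE; the dashed line marks equal ratios. The 4 genes in red, RPS0B, RPS24B, RPS7B and RPS15, are those whose efficiency fell, and 45 of the 57 points lie below the line.

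Paralog pairs encode the same or nearly the same protein, and reads from identical stretches could come from either copy. The coding sequences of the pairs share between 0% (RPS27) and 81.1% (RPS6) of their 28-base windows, the size of a footprint. The first stretch shows why reads of RPS6 are hard to assign and the others why reads of RPS9 and RPS22, the pairs that differ most in the results, can be told apart. Each line gives 60 bases of the coding sequence of the RefSeq reference R64, which is of another strain (S288C), in the sense direction. Capitals mark bases that differ between the copies.
RPS6A: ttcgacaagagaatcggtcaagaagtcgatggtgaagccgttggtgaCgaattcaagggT
RPS6B: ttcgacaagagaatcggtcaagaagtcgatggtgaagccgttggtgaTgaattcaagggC
RPS9A: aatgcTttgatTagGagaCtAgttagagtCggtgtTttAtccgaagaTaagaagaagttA
RPS9B: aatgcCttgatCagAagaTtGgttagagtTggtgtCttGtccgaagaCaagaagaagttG
RPS22A: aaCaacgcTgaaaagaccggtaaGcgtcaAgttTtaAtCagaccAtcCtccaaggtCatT
RPS22B: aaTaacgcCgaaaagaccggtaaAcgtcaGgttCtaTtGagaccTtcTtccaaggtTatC
The stretches start at base 82 (RPS6), 220 (RPS9) and 43 (RPS22) of the coding sequence, and 2, 10 and 11 of their 60 bases differ. For each pair the stretch of that length with the most differing bases was taken. Over the whole coding sequence the copies are 99.2% (RPS6), 90.9% (RPS9) and 89.6% (RPS22) identical. The pairs lie on chromosomes XVI and II (RPS6), XVI and II (RPS9), and X and XII (RPS22), with the A copy first.

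With the counts of both copies summed, all 33 proteins fell in RNA (30.0% of all rows fell; edgeR; median log2 change -3.77) and all 33 in footprints (30.8% of all rows; median -4.55). In RNA the sums ranged from -4.90 to -2.54, a narrower range than that of the single genes. RPS9, for which the A copy did not pass in RNA, changed as a pair by -3.85 ± 0.55, with 300, 302 and 116 CPM in -GLU RNA, against 1849, 4695 and 3812 CPM in +GLU RNA. RPS22 changed by -4.68 ± 0.38 in RNA and -5.60 ± 0.34 in footprints. RPS6, whose reads are the most shared, changed by -4.02 ± 0.40 in RNA and -3.44 ± 0.53 in footprints. The efficiency of the sums fell for 2 of the 33, RPS7 (-1.41 ± 0.42, adjusted p = 0.0456) and RPS15 (-1.61 ± 0.43, adjusted p = 0.0299), where 4.48% of all rows fell, and the median over the 33 was -0.87. RPS0 as a pair stood at -1.78 ± 0.56 (adjusted p = 0.0510). These calls depend on single libraries: 0 of the 33 fell without +GLU RNA replicate 3, without +GLU footprint replicate 2 or without +GLU footprint replicate 3, 0 with cellulose RNA alone, and 1 with counted length as an offset. In the other direction, 10 fell without -GLU RNA replicate 3 or with the replicate block within each state, and 13 without -GLU replicate 3 in both assays.

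The copies of a pair did not keep their proportions. In RNA the share of the A copy did not overlap between the states in 16 of 24 pairs, and among 34 pairs of large-subunit genes in 18 (52.9%). In 14 of the 16 the copy with fewer counts in +GLU cells gained share without glucose, as in 17 of the 18 large-subunit pairs. In footprints 16 pairs did not overlap, against 21 of the 34 large-subunit pairs (61.8%), and the lesser copy gained in 12 of the 16 and in 17 of the 21. The lesser copy is defined here from the same +GLU libraries that enter the shift, which by itself favours a gain. With the lesser copy taken from the +GLU fast-harvest library instead, a choice made after seeing the data, it gained in 12 of 16 pairs in RNA and 13 of 16 in footprints. The median size of the shift was 8.75 percentage points in RNA and 14.0 in footprints. In 11 pairs the states did not overlap in either assay, and all 11 shifted in the same direction in both. The matching count was not made for the large-subunit pairs, so it cannot be read as particular to these genes. For every pair that did not overlap, the exact two-sided permutation test gave p = 0.1, the smallest possible, so no single pair can pass a threshold of 0.05.

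**Figure D4:**
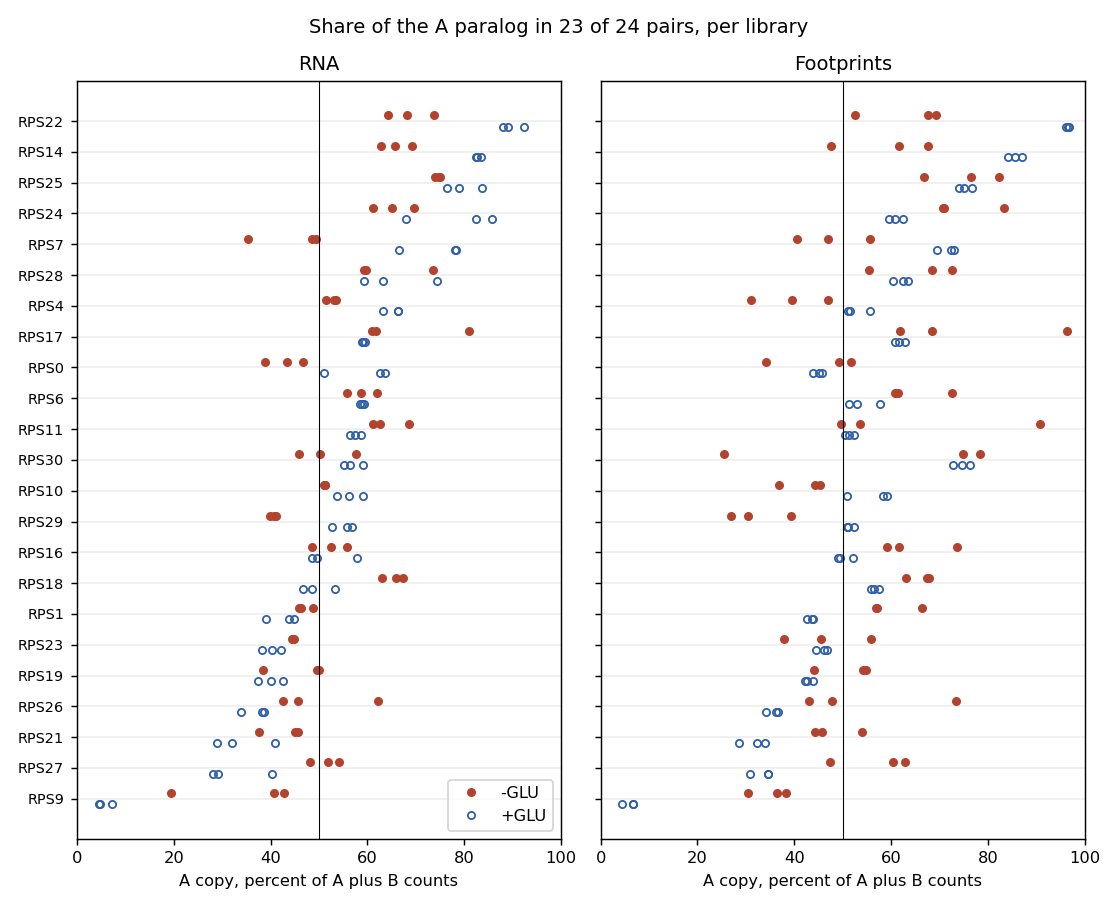
Counts of the A copy as a percent of A plus B in each library, for 23 of the 24 pairs in RNA (left) and footprints (right); filled red points are -GLU libraries, open blue points +GLU libraries, ordered by the +GLU RNA mean. In RNA, RPS9A lies at 19.5% to 42.7% in -GLU cells, against 4.68% to 7.20% in +GLU cells, and RPS22A at 64.4% to 73.8% in -GLU cells, against 88.0% to 92.3% in +GLU cells.

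RPS9 showed the largest difference between copies in RNA: RPS9A changed by -0.95 and RPS9B by -4.46 ± 0.52, a difference of 3.51 on the log2 scale. RPS9A held 40.7%, 42.7% and 19.5% of the pair's RNA counts in -GLU cells, against 7.20%, 4.71% and 4.68% in +GLU cells. In footprints it held 36.4%, 30.4% and 38.3% in -GLU cells, against 4.38%, 6.62% and 6.64% in +GLU cells. The states were far apart in both assays. Only 13.8% of the 28-base windows of RPS9A occur in RPS9B.

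RPS22 showed the largest difference in footprints, 4.09 on the log2 scale. RPS22A held 68.2%, 73.8% and 64.4% of the pair's RNA counts in -GLU cells, against 92.3%, 88.0% and 89.0% in +GLU cells. It held 52.6%, 67.7% and 69.3% of the footprints in -GLU cells, against 96.0%, 96.7% and 96.5% in +GLU cells. Just 3.55% of the windows of the copies are shared. RPS22B has an intron that holds a noncoding RNA gene on the same strand, as does ASC1; whether intron reads were counted is not stated.

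In RPS7 and RPS14 too, the B copy gained. RPS7A held 49.5%, 48.6% and 35.3% of RNA counts in -GLU cells, against 66.5%, 78.0% and 78.3% in +GLU cells, and 55.7%, 47.0% and 40.6% of footprints in -GLU cells, against 69.5%, 72.3% and 72.9% in +GLU cells. RPS14A held 65.7%, 62.9% and 69.3% of RNA counts in -GLU cells, against 82.4%, 82.7% and 83.4% in +GLU cells, and 67.5%, 47.5% and 61.6% of footprints in -GLU cells, against 84.1%, 87.1% and 85.5% in +GLU cells. In both pairs the states were apart in either assay. RPS27, for a zinc-binding protein and with no shared window, moved towards the A copy, as RPS9 did. In all these pairs the copy with fewer counts in +GLU cells gained. RPS27A held 48.2%, 51.9% and 54.0% of RNA counts in -GLU cells, against 40.3%, 28.0% and 29.2% in +GLU cells, and 47.3%, 60.4% and 62.8% of footprints in -GLU cells, against 34.6%, 30.9% and 34.6% in +GLU cells.

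RPS24 differed between the assays. RPS24A held 65.0%, 61.1% and 69.6% of RNA counts in -GLU cells, against 67.9%, 85.7% and 82.4% in +GLU cells, where the highest -GLU and the lowest +GLU value overlapped (exact permutation p = 0.2). In footprints it held 70.9%, 70.7% and 83.3% in -GLU cells, against 59.7%, 62.4% and 60.8% in +GLU cells, with no overlap. In RPS0, the A copy held 46.6%, 43.3% and 38.8% of RNA counts in -GLU cells, against 51.0%, 62.7% and 63.5% in +GLU cells, while its footprint shares overlapped. RPS6A held 55.7%, 58.6% and 62.0% of RNA counts in -GLU cells, against 59.4%, 58.9% and 58.4% in +GLU cells, an overlap that says little, since most reads of the copies are alike.

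The paralog shares were also read in the single libraries without cycloheximide. For 15 of the 16 pairs apart in footprints, the share of the A copy moved in the same direction between the fast-harvest libraries. RPS21 was the exception. For the pairs apart in RNA it was 13 of 16, with RPS0, RPS23 and RPS25 moving the other way. RPS9A held 25.1% of the pair in the -GLU library (95% exact interval 23.3% to 27.0%, counting error only) and 5.84% in the +GLU library (5.69% to 5.995%). RPS22A held 50.6% (47.97% to 53.2%) in the -GLU library and 91.4% (91.2% to 91.6%) in the +GLU library. RPS14A held 68.2% in the -GLU library and 89.2% in the +GLU library, and RPS27A 46.9% in the -GLU library and 32.4% in the +GLU library. The -GLU library without the fast-harvest note differed from the fast-harvest one. In it the A copies of RPS9, RPS22, RPS14 and RPS27 held 57.3%, 52.9%, 52.9% and 73.1%, for RPS22 from 9 and 8 counts. With 1 library of each kind there is no replicate check of these values.

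Without cycloheximide the fall of the 57 genes was seen again. Between the fast-harvest libraries all 57 were at least 2-fold lower without glucose, where 24.5% of all 5484 genes were and 26.3% were at least 2-fold higher, and the median log2 ratio was -3.91, against -0.00 for all genes. RPS22A stood at -5.08 (95% interval -5.19 to -4.97 for counting error), with 725 counts in the -GLU and 68790 counts in the +GLU library. RPS22B stood highest, at -1.70 (-1.82 to -1.59), with 708 counts in the -GLU and 6477 counts in the +GLU library. The 57 footprint changes with and without the drug had a Pearson r of 0.82 and a Spearman rho of 0.73.

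The -GLU library without cycloheximide and without the note on fast harvest held far fewer small-subunit footprints than the -GLU fast-harvest library. Their share of counts was 0.229% in it, against 0.762% in the fast-harvest library. Of the 57 genes, 50 were at least 2-fold lower and 0 at least 2-fold higher, where 15.1% of all 5372 genes were at least 2-fold lower and 6.59% at least 2-fold higher, and all 57 log2 ratios lay below 0 (median -1.96, range -4.21 to -0.44). RPS22A had 9 counts in this library, against 725 in the fast-harvest library, and RPS22B 8 counts, against 708. RPS9A and RPS6B changed least. RPS9A had 86 counts, against 559 (log2 ratio -0.44, 95% interval -0.78 to -0.11). RPS6B had 23 counts, against 150 (-0.44, -1.15 to 0.20). The large-subunit genes moved alike, with 69 of 78 at least 2-fold lower (median -1.97), whereas of the 19 genes for 40S assembly, export and chaperones 0 were (median -0.01). Harvest and library cannot be told apart, since each is a single library.

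Levels were compared between proteins as RPKM, counts per 1000 nt and per 1000000 counts, with the copies of a pair summed. In +GLU RNA the highest were RPS12 with 17323 ± 5706 RPKM, RPS31 with 15046 ± 5698, RPS25 with 8101 ± 2815, RPS1 with 7987 ± 1996 and RPS28 with 7980 ± 1699 (SD, n = 3). Near the low end were RPS4 with 2385 ± 579 RPKM and RPS6, the lowest, with 1141 ± 372. RPS12 and RPS31 differed from each other by less than their SD, as did RPS25, RPS1 and RPS28, while RPS31 stood above RPS25, and RPS4 above RPS6, by more than the SD of either. In -GLU RNA, RPS12 was again highest, with 960 ± 292 RPKM, and RPS6 lowest, with 81.2 ± 26.6. In footprints RPS12 ranked 17th in -GLU cells and 12th in +GLU cells of the 33 proteins.

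RPS4 and RPS6 are also among the proteins whose copies share the most sequence. The share of 28-base windows found in another coding sequence was 63.1% for RPS4 and 81.1% for RPS6. Over the 33 proteins the log2 level in RPKM and this share had a Pearson r of -0.61 to -0.68 in the -GLU RNA libraries, -0.59 to -0.74 in the +GLU RNA libraries and -0.78 to -0.83 in the +GLU footprint libraries (Spearman rho -0.39 to -0.46 in the last), of -0.22 to -0.50 in the -GLU footprint libraries, and of -0.85 in the +GLU fast-harvest library. All counts of a protein were then divided by its number of windows found in no other coding sequence, a measure chosen after seeing the data. This scale holds only if reads from shared windows were left out of the counts, which is not stated. Its divisor by itself raises proteins with much shared sequence. On it RPS6 had 438 ± 136 in -GLU and 6145 ± 1905 in +GLU RNA (per 1000 such windows and per 1000000 counts). RPS6 then ranked 20th of 33 in +GLU RNA. On this scale RPS12 and RPS31 remained the highest in +GLU RNA.

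**Figure D5:**
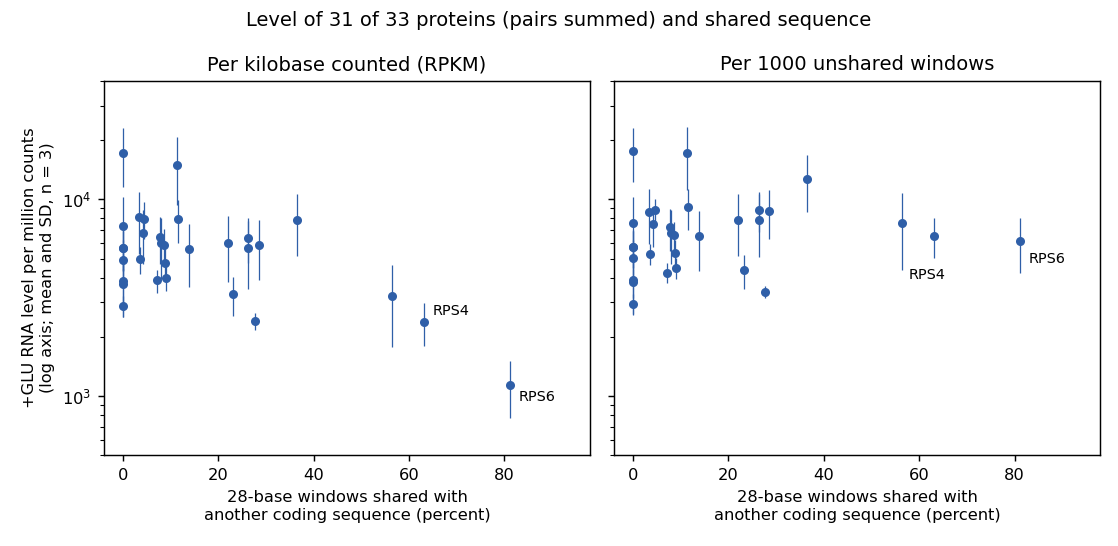
Level of 31 of the 33 proteins in +GLU RNA (log axis; mean and SD of 3 libraries) against the percent of their 28-base windows shared with another coding sequence, per kilobase (left) and per 1000 unshared windows (right). RPS4 and RPS6 lie near the bottom on the left and among the others on the right, where the divisor by itself raises them.

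The subunit needs its proteins in equal number, and per unshared window the levels were closest in +GLU footprints. The SD of the log2 level over the 33 proteins was 0.81 in -GLU and 0.81 in +GLU RNA per kilobase, and 0.59 in -GLU and 0.59 in +GLU RNA per unshared window. In footprints it was 1.03 in -GLU and 0.66 in +GLU libraries per kilobase, and 1.00 in -GLU and 0.38 in +GLU libraries per unshared window. In the +GLU fast-harvest library, the deepest, it was 0.30 per unshared window, and the highest protein stood 2.64-fold above the lowest, against 0.62 and 10.97-fold in the -GLU fast-harvest library. The -GLU libraries held far fewer counts on these genes, and the part of counting error in their spread was not tested.

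Genes around the small subunit changed less uniformly. Of 19 genes for 40S assembly, export and dedicated chaperones, 16 fell and 0 rose in RNA (median -2.17), and 17 fell in footprints (median -2.16). Efficiency fell for 2 of them, RIO1, a kinase of late 40S maturation (-1.87 ± 0.56, edgeR adjusted p = 0.0460), and PRP43, a helicase of ribosome assembly and splicing (-1.85 ± 0.45, adjusted p = 0.0202). Of 13 partners of the mature subunit, 2 rose and 7 fell in RNA, and 1 rose and 7 fell in footprints. In efficiency 0 of these partners changed (3 at an unadjusted p under 0.05). Of all genes tested, 30.2% fell and 30.4% rose in RNA, and 31.0% fell and 33.8% rose in footprints. Efficiency fell in 4.48% and rose in 9.24% of all genes tested.

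Of 22 regulators of ribosomal protein gene transcription, 7 rose and 5 fell in RNA, where 30.4% and 30.2% of all genes rose and fell. In footprints 8 of the regulators rose and 5 fell, where 33.8% and 31.0% of all genes rose and fell. IFH1, the coactivator, fell in RNA (-1.16 ± 0.31, adjusted p = 0.00960) and footprints (-1.72 ± 0.18), and FHL1, its DNA-bound partner, fell in both (-0.63 ± 0.21 and -0.70 ± 0.22). CRF1, a corepressor that competes with Ifh1 for Fhl1, rose in RNA (1.58 ± 0.27) and footprints (4.15 ± 0.36), and its efficiency rose (2.63 ± 0.45, adjusted p = 0.00461). MRS6, which binds the activator Sfp1, fell in efficiency (-1.24 ± 0.36, adjusted p = 0.0404). RAP1 stood at -0.40 ± 0.25 in RNA and -0.69 ± 0.35 in footprints, SFP1 at -0.04 ± 0.30 and -0.29 ± 0.22, and the kinase gene SCH9 at 0.29 ± 0.23 and -0.24 ± 0.31, none past the test. HMO1 did not pass in RNA (0.46 ± 0.26) and rose in footprints (1.21 ± 0.20).

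Promoters were searched on both strands in the R64 reference for the Rap1 motif. In the window of 250 bases before to 50 after the start codon, 4 of the 57 genes held it (7.02%), against 6.17% of large-subunit genes and 1.26% of 6027 genes. Many sites lie further out: in 600 bases before the start codon, a window chosen after seeing the first count, 19 of 57 held it (33.3%), against 27.2% of large-subunit genes and 2.85% of all. The matches lay 205 to 467 bases before the start codon, with a median of 340. The genes with a match had a median RNA change of -3.91 and the 38 without -3.66. Matches of RPS9A and RPS14B, which changed least in RNA, of ASC1, which was among the most changed, and of RPS0B, the lowest in efficiency, are shown in the gene's sense direction with the motif in capitals (in ASC1 on the opposite strand).
RPS9A: aaaggctgcACACCCATGCAtcattctaaa
RPS14B: catcattgtACATCCTTGCAccacactgaa
ASC1: ttatgactaTGTACGGATGTtaggccgtct
RPS0B: tccctttttACATCCGTACAtataaaatgt
They lie 244, 205, 298 and 425 bases before the start codon, on chromosomes XVI, X, XIII and XII. Among the genes that fell most in RNA, ASC1 held the motif, while RPS22A and RPS31 held no match in the 600 bases. RPS9A, RPS14B and RPS7B, which changed least in RNA, each held it. Whether the motif bears on the change was not tested. In the shorter window the Fhl1 motif GACGCA stood in 7.02% of the 57 genes and 6.27% of all, the PAC element GATGAG in 12.3% and 20.3%, the RRPE element GAAAAATTT in 5.26% and 6.06%, and the stress response element AGGGG in 19.3% and 21.6%. A match is a stretch of letters, not a bound site.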

How the data were processed

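The authors deposited whole-number counts per gene, not normalised, and RPKM values. In the deposited columns of -GLU RNA replicates 1 and 2 the values are called expected counts here, since 1 entry (YPR203W) is not whole; it was left out of all libraries and no rounding was needed. The deposited RPKM values divide each count by counted length and library total, as worked out from the tables. No source used here states the aligner, build or use of strand. The table held 5704 genes; 5698 of the 5703 analysed matched the R64 reference, used for names, coding sequences and promoters.

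Changes were tested with edgeR 4.0.16 (R 4.3.3; quasi-likelihood F test, TMM factors, filterByExpr with a minimum count of 10, Benjamini-Hochberg adjustment over all genes, 0.05), separately for 6 RNA and 6 footprint libraries, and as the interaction of assay and glucose over 12. SE was taken as the absolute change over the root of F. The fits were tested on simulated data. DESeq2 1.42.0 was an alternative. In -GLU cells, same-numbered RNA and footprint libraries deviated together (correlations 0.40 to 0.62 across genes). The main fits did not use this pairing. It entered only through the replicate blocks run as alternatives. Replicates of 1 group differed beyond sampling noise. Intervals cover counting error only, and the floor of 3 counts was 0.0981 to 1.86 CPM per library. No coordinates are given, since the authors' build is not stated.

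The members and lists were chosen with earlier results of these data known. Genes named are the single-copy genes, the 3 lowest and highest changes in each comparison, genes not called, the 5 pairs whose copies differ most, the pairs with most and least shared sequence, the highest and lowest levels, and list members called in efficiency with 7 regulators; others are said to be chosen later. Some members' own values are not reported here; they stay in all counts.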

Additional observations from a re-analysis of the deposited data

How the results depend on the processing

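The falls in RNA and footprints kept their direction and calls under other scaling (DESeq2 size factors, total counts), DESeq2, no filter, a length offset and with each replicate left out (56 genes in RNA, 57 in footprints; 33 proteins in each). Total counts moved the median of all genes to 0.15 in RNA, 0.55 in footprints and 0.36 in efficiency. Of the named genes, RPS9A in RNA was called only with the replicate block (-1.23, adjusted p = 0.0281), and RPS14B in RNA was lost with cellulose RNA alone.

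For efficiency, the 4 genes called became 16 with DESeq2 and 17 without -GLU replicate 3 in both assays, and 3 to 17 when single libraries were left out. For pair sums, the 2 called became 10 with DESeq2, 1 with the length offset, 0 with cellulose RNA alone and 13 without -GLU replicate 3 in both assays, and 0 to 10 when single libraries were left out. Efficiency turned negative with cellulose RNA alone for RPS22B (-0.077), RPS30B (-0.089) and RPS6A (-0.18). The median efficiency change stayed negative in every setting run. Genes with more footprints than RNA numbered 3 in -GLU and 10 in +GLU cells with total counts, and 3 to 14 and 25 to 38 when single libraries were left out. Pairs whose shares did not overlap numbered 17 to 19 in RNA and 16 to 18 in footprints with 1 library fewer, where overlap is harder. At 4-fold in place of 2-fold, 26 genes were lower in the -GLU library without the fast-harvest note than in the fast-harvest one. The spread of levels per unshared window was 0.594 in -GLU RNA, 0.590 in +GLU RNA and 0.381 in +GLU footprints. The causes were not tested.

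As to pairing, the replicate block gave 57 genes in RNA, 57 in footprints and 4 in efficiency, and for pair sums 33, 33 and 2; 12 were higher than RNA in -GLU cells and 37 in +GLU cells. The block within each state, chosen after seeing the data, gave 17 in efficiency, 10 for pair sums, 15 in -GLU and 44 in +GLU cells. Same-numbered libraries did not deviate together between states (-0.14 to -0.07 in RNA, 0.04 to 0.09 in footprints).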

Other observations

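In -GLU footprint replicate 3 the copies of 3 pairs, chosen after their values were seen, stood apart from both other -GLU libraries. RPS11A held 53.5%, 49.6% and 90.8% of its pair in -GLU footprints, against 52.3%, 50.4% and 51.3% in +GLU footprints. RPS17A held 61.7%, 68.4% and 96.3% in -GLU footprints, against 60.8%, 62.8% and 61.7% in +GLU footprints. RPS30A held 74.8%, 78.4% and 25.6% in -GLU footprints, against 72.7%, 74.6% and 76.4% in +GLU footprints. In the -GLU fast-harvest library without cycloheximide the A copies held 56.8%, 60.2% and 75.0%.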
